A study of Mus musculus with 8 samples.

Results

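Of the 55487 genes counted in skeletal muscle of 8 mice, 9 genes of iron uptake, storage, export and regulation were examined: Tfrc, Steap3, Slc11a2, Fth1, Ftl1, Ncoa4, Slc40a1, Aco1 and Ireb2. The genes were chosen from a list of iron genes that includes Tfrc, which the study names among the genes differing between treatments, so the level of Tfrc in these mice is given as a description and without a test. All mice were male C57BL/6J at 10 weeks of age. Their hindlimbs were held in casts for 8 days, and they received K14Q MOTS-c, a variant of the mitochondria-encoded peptide MOTS-c, at 15 mg/kg/day in 2 intraperitoneal injections a day for the same 8 days. The sample labels name the vastus lateralis muscle, whereas the study's methods name the gastrocnemius, and the counts cannot tell these muscles apart. Untreated, non-immobilized and WT MOTS-c-treated mice were not analysed here. What can be measured is therefore the level of each iron gene, its spread between mice and its covariation with other genes within 1 treatment group.

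Iron reaches most cells bound to transferrin, which is taken up by the transferrin receptor TFRC, freed and reduced in the endosome by the ferrireductase STEAP3, and moved to the cytosol by the transporter DMT1, the product of Slc11a2. Iron that is not used is stored inside ferritin, a shell of heavy (FTH1) and light (FTL1) chains, and NCOA4 carries ferritin to the lysosome when the iron is needed again. SLC40A1, or ferroportin, is the exporter. When iron is scarce, the iron regulatory proteins IRP1 (from Aco1, which otherwise works as a cytosolic aconitase) and IRP2 (from Ireb2) bind hairpins in mRNAs called iron-responsive elements. Binding in a 5′ UTR blocks translation, and binding in the 3′ UTR of the Tfrc mRNA protects it from decay. Skeletal muscle holds much iron in myoglobin and in the iron-sulfur proteins and cytochromes of its mitochondria.

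The hairpins are shown because they are a sequence feature that some of the storage, export and uptake genes share. Transcripts of GENCODE release M21 were searched on the sense strand for a C bulge, 5 bases of upper stem, the loop CAGTGN, 5 bases that pair with the upper stem, and at least 4 of 5 paired bases in the lower stem. A match was found in 42 of 21951 protein-coding genes (0.191%) and in 4 of the 9 iron genes. In the lines that follow, capitals mark the bulged C and the loop, and coordinates are on GRCm38.
Fth1, 5′ UTR, chr19:9982733-9982759, plus strand: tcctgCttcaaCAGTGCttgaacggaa
Ftl1, 5′ UTR, chr7:45459780-45459806, minus strand: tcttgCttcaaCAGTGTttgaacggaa
Slc40a1, 5′ UTR, chr1:45925466-45925492, minus strand: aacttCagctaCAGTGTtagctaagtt
Tfrc, 3′ UTR, chr16:32631220-32631246, plus strand: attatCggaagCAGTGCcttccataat
Tfrc, 3′ UTR, chr16:32631599-32631625, plus strand: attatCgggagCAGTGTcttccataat
Tfrc, 3′ UTR, chr16:32631664-32631690, plus strand: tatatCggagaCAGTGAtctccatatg
Tfrc, 3′ UTR, chr16:32631711-32631737, plus strand: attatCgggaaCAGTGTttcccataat
Fth1, Ftl1 and Slc40a1 thus carried 1 match each in the 5′ UTR, and Tfrc carried 4 in the 3′ UTR. A match is a description of these letters and not a measurement of binding. Steap3, Slc11a2, Ncoa4, Aco1 and Ireb2 had no match. The pattern is strict and misses elements of another shape, so a gene without a match may still hold one. Epas1, Cdc14a and Cdc42bpa, listed here among mRNAs with such elements, had no match either.

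Between 23985356 and 33012497 counts were recovered per library. Values below are the normalised counts that the authors deposited, that is, counts over the size factor of their library. All 8 muscle fibre markers (Acta1, Ckm, Myh1, Myh2, Myh4, Tnnt3, Mb and Des) were strongly expressed, with a summed level between 1.77043e+06 and 3.48284e+06, and the 10 most abundant genes took 18.8% to 26.2% of the counts of a library. Red cell markers were present at a summed level between 7091 and 28410.4. In whole muscle, fewer cells of a type and less RNA per cell cannot be told apart. Of the proliferation markers, Ccnb1 and Cdk1 were at 0 in at least 1 library. No library repeated another. The labels do not say more of the mice than a replicate number, so each sample was taken as a separate mouse. An exact p is the share of all pairings of these mice that give an absolute r at least as large as the one found. The minimum for testing was 10 counts in all 8 libraries, which 15135 genes passed, all 9 iron genes among them.

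Ferritin mRNA stood far above the other iron genes. On the scale of normalised counts per kb of exon, Fth1 reached 11081 ± 839 (SD, n = 8) and Ftl1 2679 ± 466, and their ranges over mice did not overlap with each other or with the rest. Ncoa4 followed at 157 ± 13.8 per kb, Tfrc at 141 ± 32.8, Ireb2 at 130 ± 5.66, Aco1 at 123 ± 8.90 and Slc11a2 at 95.8 ± 20.7. Slc40a1, at 58.4 ± 6.41 per kb, and Steap3, at 49.2 ± 14.7, had the lowest levels. From Ncoa4 down, the ranges of neighbours in this order overlapped. Ncoa4 was above Tfrc in 5 of 8 mice, Tfrc above Ireb2 in 5 and Ireb2 above Aco1 in 7, so these 4 levels were not ordered in every mouse. Aco1 was above Slc11a2 in 7 mice, Slc11a2 above Slc40a1 in 8 and Slc40a1 above Steap3 in 6. With the length of the longest transcript in place of all exons, Ireb2 (214 per kb) came before Tfrc (178 per kb), Ncoa4 was at 311 per kb, and Slc40a1, at 134 per kb, was close to Slc11a2 (138) and Aco1 (144), which left Steap3 (54.5) alone as the lowest.

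**Figure D1:**
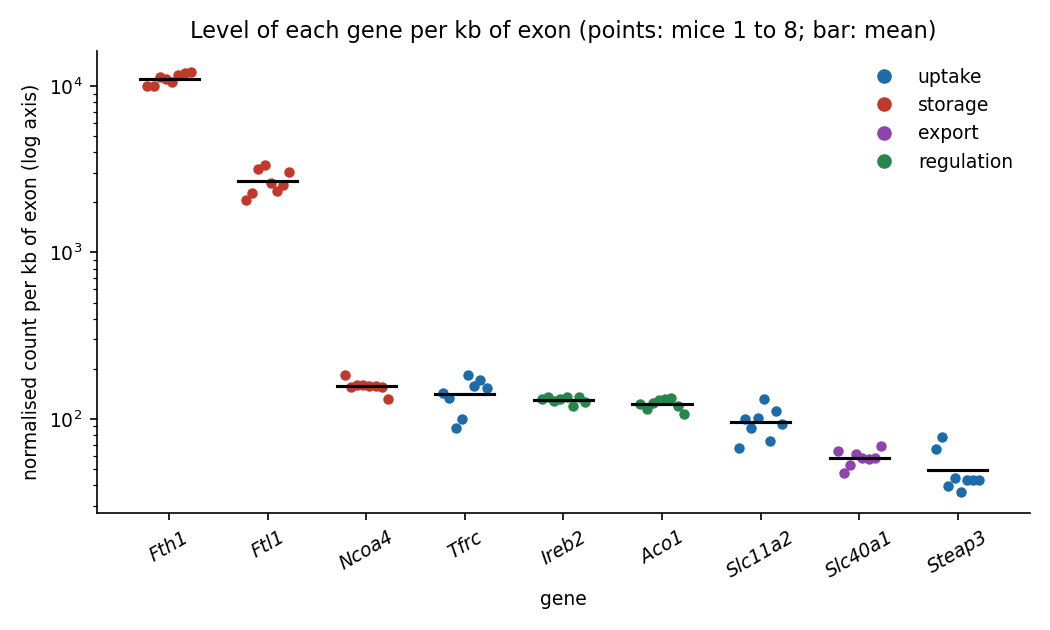
Normalised count per kb of exon (log axis) of the 9 iron genes, ordered by their mean. Each point is a mouse, the bar is the mean of 8 mice, and colours give the role; Fth1 (11081 per kb) and Ftl1 (2679 per kb) sit apart from the other 7 genes, which lie between 49.2 and 157 per kb.

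Under the authors' size factors the 3 uptake genes varied most between mice. Tfrc (chr16:32608920-32632794, plus strand) had normalised counts of 887, 821, 548, 619, 1137, 968, 1051 and 945 in mice 1 to 8, a mean of 872 ± 203. Mice 3 and 4 were the lowest, and the highest mouse, mouse 5, held 2.08 times the level of the lowest. Steap3 (chr1:120190757-120272705, minus strand) had 376, 446, 227, 253, 207, 246, 246 and 246, a mean of 281 ± 83.8. Mice 1 and 2 were above all others, and the remaining 6 mice lay between 207 and 253. Slc11a2 (chr15:100387898-100425072, minus strand) had 426, 632, 558, 643, 841, 469.7, 708 and 593, a mean of 609 ± 131. Its highest mouse was again mouse 5, while its lowest was mouse 1. The uptake genes thus had their extremes in different mice apart from mouse 5.

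The ferritin chains were abundant and differed in spread. Fth1 (chr19:9980598-9985098, plus strand) had normalised counts of 34566, 34677, 39410.4, 38105, 36881, 40204, 41348 and 42324, a mean of 38439 ± 2911. Its highest mouse held only 1.22 times the level of its lowest. Ftl1 (chr7:45457944-45459884, minus strand) had 2775, 3049, 4271, 4480.5, 3506, 3136, 3399 and 4107, a mean of 3590.5 ± 625. Mice 3, 4 and 8 were the highest and mice 1 and 2 the lowest. The count ratio of Fth1 to Ftl1 was between 8.50 and 12.8 (mean 10.9 ± 1.56), and per kb of exon it was 4.22 ± 0.601. Ncoa4 (chr14:32159865-32179855, plus strand) had 1707, 1456, 1489, 1496, 1468, 1476, 1447 and 1228, a mean of 1471 ± 129. Mouse 1 was high and mouse 8 low, with the other 6 mice within 1447 to 1496.

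The level of Ftl1, and with it each ratio to Ftl1, is uncertain because ferritin light chain sequence recurs in the genome. Of the 894 windows of 75 bases in its longest protein-coding transcript, 758 (84.8%) also occurred in transcripts of 8 other genes. Ftl1-ps1 had normalised counts of 1515 ± 232, and its ratio to Ftl1 stayed between 0.406 and 0.442. Gm22133, annotated as a miRNA that shares 109 bases of exon with Ftl1 on the same strand, had 1006 ± 130, and Gm15590 and Ftl2-ps had 823 ± 78.3 and 816 ± 90.0. Summed over Ftl1 and these 8 genes, the level was between 6162 and 9378 (mean 7761 ± 1135), lowest in mouse 1 and highest in mouse 4 as for Ftl1 itself. Ncoa4 shared 41.4% of its windows with Gm6768, which had 479 ± 78.9. Fth1 shared 2.32% with the processed pseudogene Gm6977, which had 4784 ± 473, and the other 6 iron genes shared none. How reads that fit several genes were counted is not given in the sources used here. Fthl17a, Fth-ps2, Fth-ps3 and Ftl1-ps2 had at most 6 counts in a library. On the opposite strand, Gm5475 shares 402 bases of exon with Slc11a2 and had no count, and Gm10252 shares 355 bases with Ftl1 and had at most 4 counts.

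The exporter is Slc40a1, and the regulators are Aco1 and Ireb2. Slc40a1 (chr1:45908068-45926523, minus strand) had normalised counts of 574, 426, 478, 555, 520.0, 516, 524 and 613, a mean of 526 ± 57.7. Mouse 8 was the highest and mouse 2 the lowest. Aco1 (chr4:40143081-40198338, plus strand) had 551, 514, 561, 581, 594, 596, 536 and 482, a mean of 552 ± 40.0. Ireb2 (chr9:54863789-54912530, plus strand) had 1244, 1275, 1210.5, 1247, 1278, 1130.1, 1288 and 1189.9, a mean of 1233 ± 53.7. The count ratio of Ireb2 to Aco1 was 2.25 ± 0.199, and per kb of exon the ratio was 1.07 ± 0.0944.

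**Figure D2:**
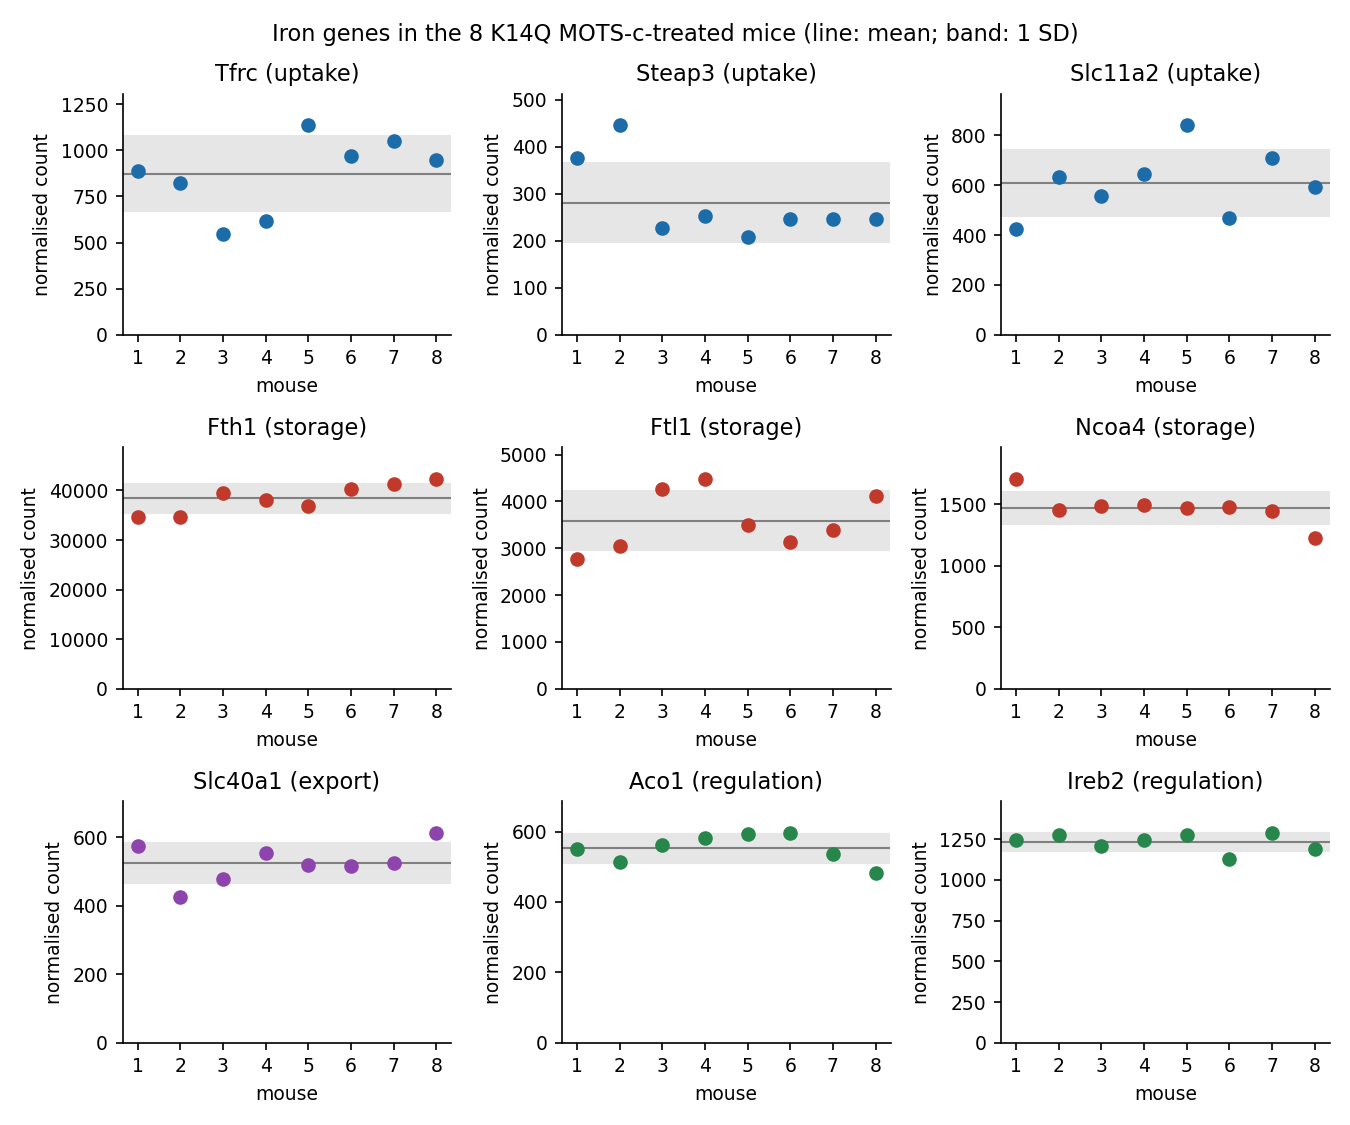
Normalised count (vertical axis, from 0) of each of the 9 iron genes in mice 1 to 8, with the mean as a line and 1 SD as a band. Tfrc is lowest in mice 3 and 4 (548 and 619), Steap3 is highest in mice 1 and 2 (376 and 446), and Ireb2 stays between 1130.1 and 1288.

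The coefficient of variation (the SD as a percent of the mean) was highest for the uptake genes under the authors' size factors. It was 29.8% for Steap3, 23.3% for Tfrc and 21.6% for Slc11a2, against 17.4% for Ftl1, 11.0% for Slc40a1, 8.77% for Ncoa4, 7.57% for Fth1, 7.25% for Aco1 and 4.35% for Ireb2. Counting error alone gave 6.18% for Steap3, the gene with fewest counts, and at most 4.42% for the others, so that most of the spread of the uptake genes was not counting error. The median over the 9 genes was 11.0%, and over all 15135 genes tested it was 15.6% (quartiles 11.0% and 22.3%). Over the 7856 genes with a mean at or above that of Steap3 it was 12.6%. Of all genes tested, 77.2% had a lower coefficient of variation than Tfrc, and 0.482% had a lower one than Ireb2. Scaling to library totals changed this order. Ftl1 then had the highest value, 25.7%, with Steap3 at 25.4%, Tfrc at 18.7% and Slc11a2 between these, and Fth1, Aco1 and Ireb2 had 13.0%, 13.7% and 8.63%.

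The 36 pairs of iron genes were tested for moving together from mouse to mouse. Pearson's r on log2(normalised count + 1) was tested with an exact two-sided permutation over every order of the 8 mice. Of the 36 pairs, 2 had an unadjusted exact p under 0.05 (5.56%), against 9.03% of all 136206 relations between an iron gene and a gene tested. None of the 136206 relations had a Benjamini-Hochberg adjusted exact p under 0.05 (smallest 0.188), although 12297 were under 0.05 unadjusted. The pairs were Steap3 with Fth1 (r = -0.70, exact p = 0.0495; rho = -0.38, exact p = 0.36) and Fth1 with Ncoa4 (r = -0.69, exact p = 0.0385; rho = -0.62, exact p = 0.115). Steap3 with Fth1 rested on mice 1 and 2, without which r was 0.62, and leaving out any mouse but mouse 5 took its exact p over 0.05. Fth1 with Ncoa4 had r = -0.67 without mice 1 and 2, and its exact p was over 0.05 when mouse 1, 4, 5, 7 or 8 was left out. Under scaling to library totals the r of Fth1 with Ncoa4 turned to 0.28. That scaling gave 4 of the 36 pairs under 0.05, and 17.7% of all relations. With 8 mice, these counts do not show how many of the iron genes move together.

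**Figure D3:**
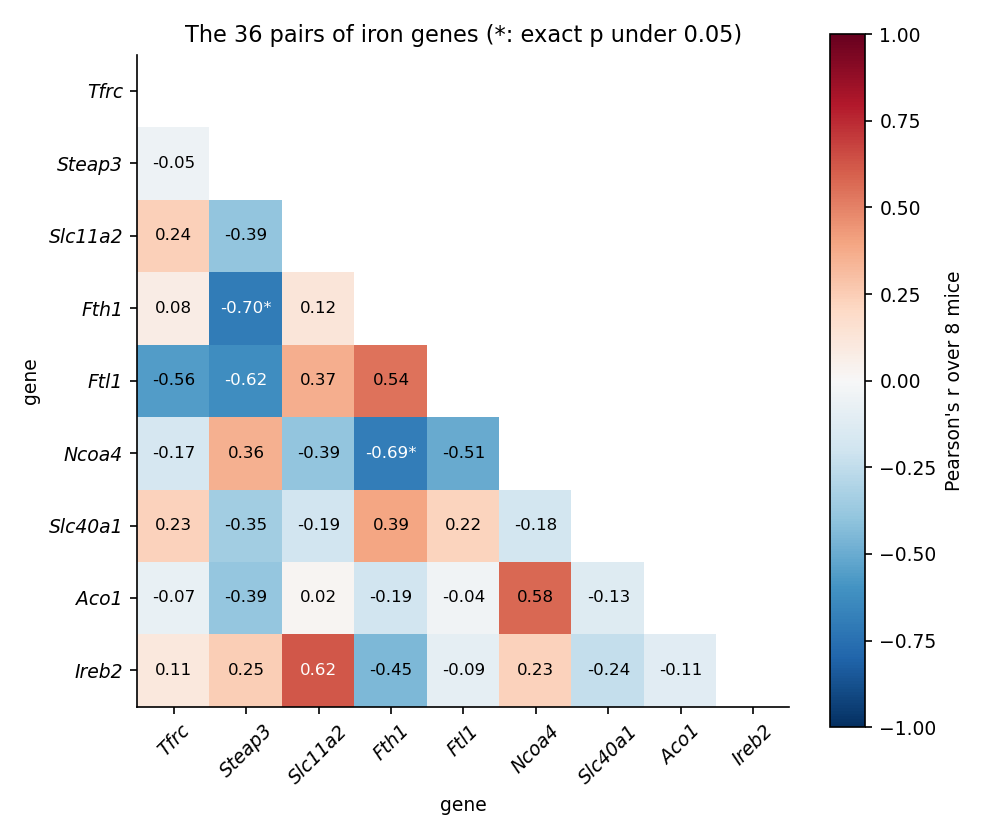
Pearson's r over 8 mice for each of the 36 pairs of iron genes, with red for positive, blue for negative and a star for an exact p under 0.05. The 2 starred pairs are Fth1 with Steap3 (r = -0.70) and Fth1 with Ncoa4 (r = -0.69), and the ferritin chains have r = 0.54.

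Of the pairs that the biology of iron links, Fth1 with Ncoa4 is given above. None of the pairs that follow passed an exact p of 0.05 over all 8 mice under the authors' size factors. Apart from these, Slc11a2 with Ireb2 passed by rho (0.79, exact p = 0.0279) but not by r (0.62, exact p = 0.104). The ferritin chains Fth1 and Ftl1 had r = 0.54 (exact p = 0.168) and rho = 0.45 (exact p = 0.267), and r was -0.10 without mice 1 and 2, so that it rested on those mice. Under library totals the r of the ferritin chains was 0.88 (exact p = 0.00491). The regulators Aco1 and Ireb2 had r = -0.11 (exact p = 0.788) and rho = -0.14 (exact p = 0.752), and r = 0.76 (exact p = 0.0236) under library totals. Tfrc had r = 0.24 with Slc11a2 (exact p = 0.566; rho = 0.40, exact p = 0.327) and r = -0.05 with Steap3 (exact p = 0.923; rho = -0.40, exact p = 0.327), its partners in the endosome. Among the mice other than 3 and 4, the farthest from the median of Tfrc, these values were 0.61 and -0.91, the latter with an exact p of 0.0125. Leaving out these mice was chosen after seeing the data. Of the remaining mice, 1 and 2 had the lowest Tfrc (887 and 821) and the highest Steap3 (376 and 446, against 207 to 246). The part of mice 1 and 2 in this r was not tested. With Aco1 and Ireb2, Tfrc had r = -0.07 (exact p = 0.866; rho = 0.17, exact p = 0.703) and r = 0.11 (exact p = 0.809; rho = 0.31, exact p = 0.462). Tfrc and Fth1, whose mRNAs carry the hairpins at opposite ends, had r = 0.08 (exact p = 0.856) and rho = 0.24 (exact p = 0.582). The genes with a 5′ hairpin gave r = 0.39 for Fth1 with Slc40a1 (exact p = 0.346) and 0.22 for Ftl1 with Slc40a1 (exact p = 0.603). Under library totals the r of Tfrc was -0.66 with Ireb2, -0.56 with Steap3, -0.36 with Aco1, -0.28 with Fth1 and 0.06 with Slc11a2. The exact p of these was between 0.0818 and 0.892. With 8 mice such values leave a wide range of relations possible, and they do not show that the genes move independently.

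Tfrc and Ftl1 parted in mice 3 and 4. The count ratio of Tfrc to Ftl1 was 0.128 in mouse 3 and 0.138 in mouse 4, and between 0.230 and 0.324 in the other 6 mice (mean of all 8, 0.253 ± 0.0805). Over 8 mice Tfrc and Ftl1 had r = -0.56 (exact p = 0.154) and rho = -0.31 (exact p = 0.462), and over the other 6 mice r was 0.45 (exact p = 0.378), so the negative sign rested on mice 3 and 4. Slc39a14, whose product ZIP14 takes up iron that is not bound to transferrin, had normalised counts of 2769 in mouse 3 and 3120.4 in mouse 4, and between 493 and 1047 in the other 6. Its ratio to Tfrc was 5.06 and 5.04 in mice 3 and 4 and between 0.600 and 1.10 in the others. These mice form a cluster apart for Slc39a14, so no r over all 8 mice is given; over the other 6, r was 0.70 with Ftl1 (exact p = 0.138; rho = 0.83, exact p = 0.0583) and 0.78 with Tfrc (exact p = 0.0778; rho = 0.77, exact p = 0.103).

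The same 2 libraries differed in other ways. The 10 most abundant genes took 18.8% and 19.6% of their counts, against 21.7% to 26.2% in the other 6, and the summed muscle fibre markers were 1.77043e+06 and 1.94845e+06, against 2.52561e+06 to 3.48284e+06. Of the 8 fibre markers, 3 (Myh1, Myh2 and Mb) rose with Tfrc at an unadjusted exact p under 0.05 against 3.89% of all genes, and 3 (Myh1, Myh2 and Myh4) fell with Ftl1, against 5.09% of all genes. All 8 had a positive r with Tfrc and a negative r with Ftl1. Without mouse 3 or without mouse 4, 0 of the 8 passed with Tfrc, and without mouse 7, 1 did. With Ftl1, 5 of the 8 passed without mouse 8. Under library totals 0 of the 8 rose with Tfrc. With both mice 3 and 4 left out, none of the 8 passed with Tfrc or with Ftl1 by Pearson's r. Tfrc with Myh1 turned from r = 0.79 to -0.38 (exact p = 0.474), whereas Ftl1 with Myh4 went from -0.90 to -0.81 (exact p = 0.0528; rho = -0.89, exact p = 0.0333) and with Myh2 from -0.89 to -0.73 (exact p = 0.1). The r of Ftl1 with the share of the 10 most abundant genes was -0.87 (exact p = 0.0078; rho = -0.93, exact p = 0.0022; adjusted over all genes, 0.191), and that of Tfrc was 0.63 (exact p = 0.0935; rho = 0.29, exact p = 0.501). The macrophage marker Cd68 was also highest in mice 3 and 4 (754 and 931, against at most 586). Of the 9 macrophage markers tested, however, 0 rose or fell with Ftl1, and only 1 had a positive r (median -0.17). The summed level of the macrophage markers was highest in mouse 4 (6306). In mouse 3 this sum was 4281, within the 2521 to 5041 of the other 6. Of the 3 proliferation markers tested, Pcna (r = 0.76, exact p = 0.0339; rho = 0.69, exact p = 0.0694) and Rrm2 (r = 0.81, exact p = 0.0123; rho = 0.81, exact p = 0.0218) rose with Ftl1, against 7.92% of all genes. The other marker tested, Mki67, had a negative r with Ftl1, and only 3 of the 8 listed could be tested. Without mice 1 and 4, the farthest from the median of Ftl1, Pcna and Rrm2 had r = 0.59 and 0.58. The part of fibre content, these other cell markers and library composition in the levels of Tfrc and Ftl1 was not tested.

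**Figure D4:**
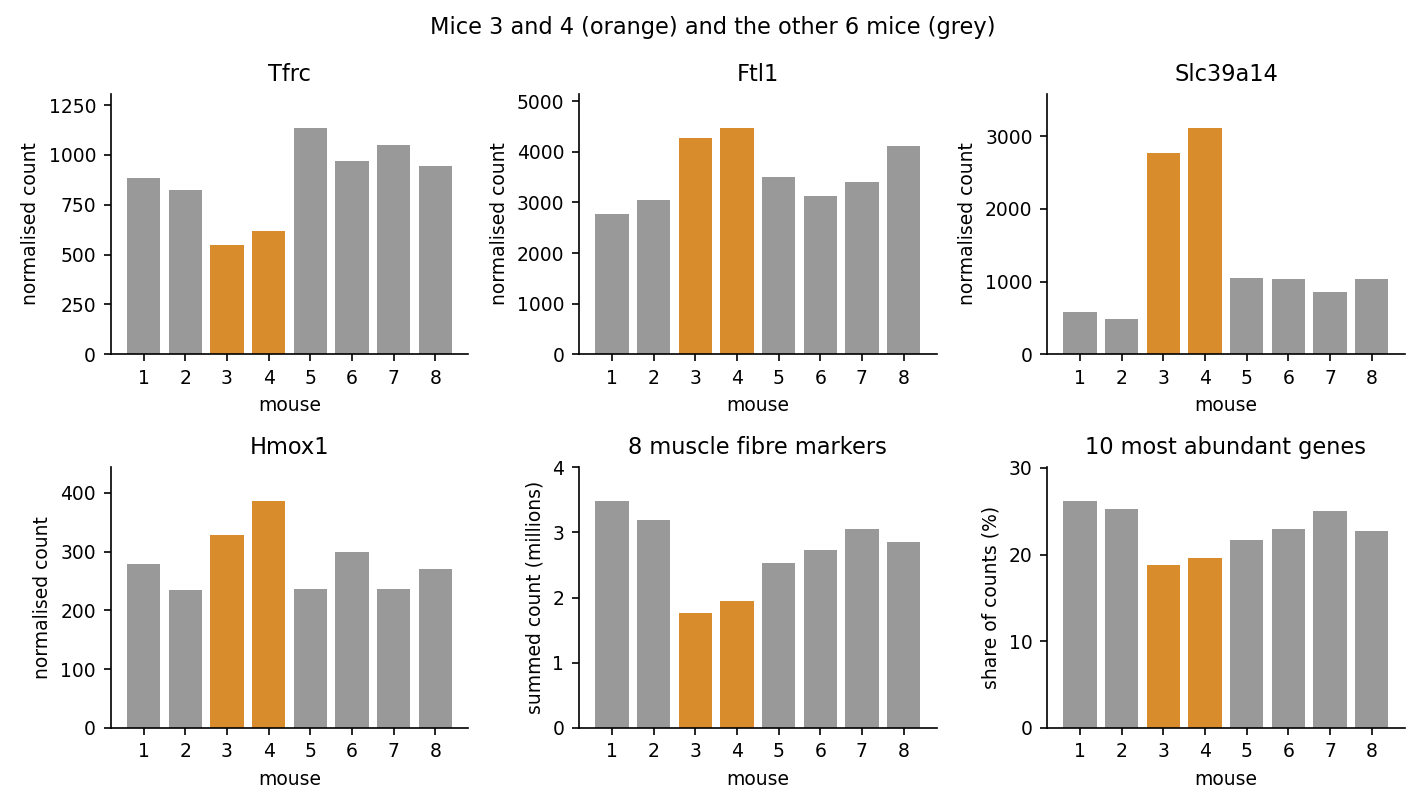
Normalised counts of Tfrc, Ftl1, Slc39a14 and Hmox1, summed normalised counts of the 8 muscle fibre markers and the share of counts taken by the 10 most abundant genes, for mice 1 to 8, as bars from 0. Mice 3 and 4 (orange) have the lowest Tfrc, fibre markers and share and the highest Ftl1, Slc39a14 and Hmox1, with Slc39a14 at 2769 and 3120.4 against at most 1047.

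Around these genes, 64 further genes of iron handling were listed, of which 56 could be tested. Among the 5 with the highest levels per kb of exon was Hfe2, which encodes the muscle-rich BMP co-receptor hemojuvelin, at 4516 ± 646. Hspa9, the mitochondrial chaperone of iron-sulfur transfer, followed at 2838 ± 379, Pcbp1, a cytosolic iron chaperone that loads ferritin, at 1532 ± 116, and Cisd1, an iron-sulfur protein of the outer mitochondrial membrane, at 1360 ± 202. Fth1 was above all 64 genes, and Ftl1 differed from Hspa9 by less than 1 SD. Ftmt, the mitochondrial ferritin, had no count in any library. The hepcidin genes Hamp and Hamp2 had at most 1 and 6 counts in a library, and Tfr2, the other transferrin receptor, had at most 1.

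Under the authors' size factors the count of these genes past the test was highest for Fth1, a difference in counts that was not itself tested. At an unadjusted exact p under 0.05, 9 of the 56 rose with Fth1 (16.1%, against 7.97% of all genes tested) and 7 fell with it (12.5%, against 9.75%). Of the 22 genes of mitochondrial iron import and iron-sulfur assembly, 20 had a positive r and 7 rose: Slc25a37, the importer mitoferrin 1, and Iscu, Nfs1, Glrx5, Fdx1l, Nfu1 and Cisd1. Their median r was 0.42, against 0.02 over all genes. Fdx1l, a mitochondrial ferredoxin with normalised counts between 337 and 502, had r = 0.94 (exact p = 0.000694; rho = 0.88, exact p = 0.00724) and 0.95 without mice 1 and 2. Iscu, the scaffold of assembly, between 1690.5 and 2193, had r = 0.89 (exact p = 0.0036; rho = 0.95, exact p = 0.00114) and 0.92 without mice 1 and 2. Without those mice Glrx5 went from 0.77 to 0.46, and the other 4 of the 7 had r between 0.70 and 0.82. The others that rose were Pcbp1 (r = 0.86, exact p = 0.00888; rho = 0.88, exact p = 0.00724) and Urod, a heme synthesis enzyme (r = 0.92, exact p = 0.00184; rho = 0.93, exact p = 0.00223). With trends on GC content and length removed, Pcbp1 did not pass (r = 0.69, exact p = 0.0592). Without mouse 8, which had the highest Fth1, Iscu, Nfs1 and Cisd1, 4 of the 22 passed.

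The share that fell with Fth1 was near that of all genes, so these 7 are named as a description. They were Trf (transferrin), the metalloreductases Steap2 and Steap4, Cp (the ferroxidase ceruloplasmin), Fbxl5 and Herc2, components of the ubiquitin ligases of IRP2 and of NCOA4, and Epas1, which encodes the hypoxia factor HIF-2α. Cp, with normalised counts between 239 and 554, had r = -0.93 (exact p = 0.000422; rho = -0.95, exact p = 0.00114) and Trf, between 259 and 733, had r = -0.91 (exact p = 0.00293; rho = -0.90, exact p = 0.00456). Without mice 1 and 2 these were -0.86 and -0.87, and the others of the 7 were between -0.80 and -0.69 except Fbxl5, which went from -0.71 to -0.23 (rho over 8 mice -0.57, exact p = 0.151) and so rested on those mice. Without mouse 8, the number of the 56 genes that fell was 4. Under library totals Cp had r = -0.50 (exact p = 0.203) and Trf -0.23 (exact p = 0.573). Under scaling to library totals the split changed to 22 genes that rose and none that fell, whereas TMM factors gave 9 and 6 and taking out trends on GC content and length 7 and 5. That scaling moved the mean log2 level of all genes in a library by -0.129 to 0.212 relative to the authors' size factors.

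Markers of other cells of the muscle moved with Fth1 as well. At an unadjusted exact p under 0.05, 6 of 8 endothelial markers fell with Fth1, as did 5 of 8 fibroblast markers, 5 of 9 macrophage markers and 4 of 5 adipocyte markers, against 9.75% of all genes. The strongest was Emcn, an endothelial sialomucin, with r = -0.97 (exact p = 0.000174; rho = -0.95, exact p = 0.00114). Of the satellite cell markers 2 of 5 rose and 2 fell, and none of the muscle fibre, slow fibre, red cell, Schwann cell or proliferation markers passed. The summed level of the endothelial markers was between 4177 and 6206, that of the fibroblast markers between 10294.4 and 19186, that of the macrophage markers between 2521 and 6306, and that of the adipocyte markers between 612 and 2187. Endothelial and adipocyte sums were highest in mouse 2 and lowest in mouse 8, the mouse with the highest Fth1. Without mouse 8, 1 of 5 adipocyte and 2 of 9 macrophage markers passed, and without mouse 5, 3 of 9 macrophage markers. Under library totals none of the endothelial, fibroblast, adipocyte and macrophage markers fell with Fth1 at this threshold. The part of these cells in the covariation of Fth1 was not tested.

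**Figure D5:**
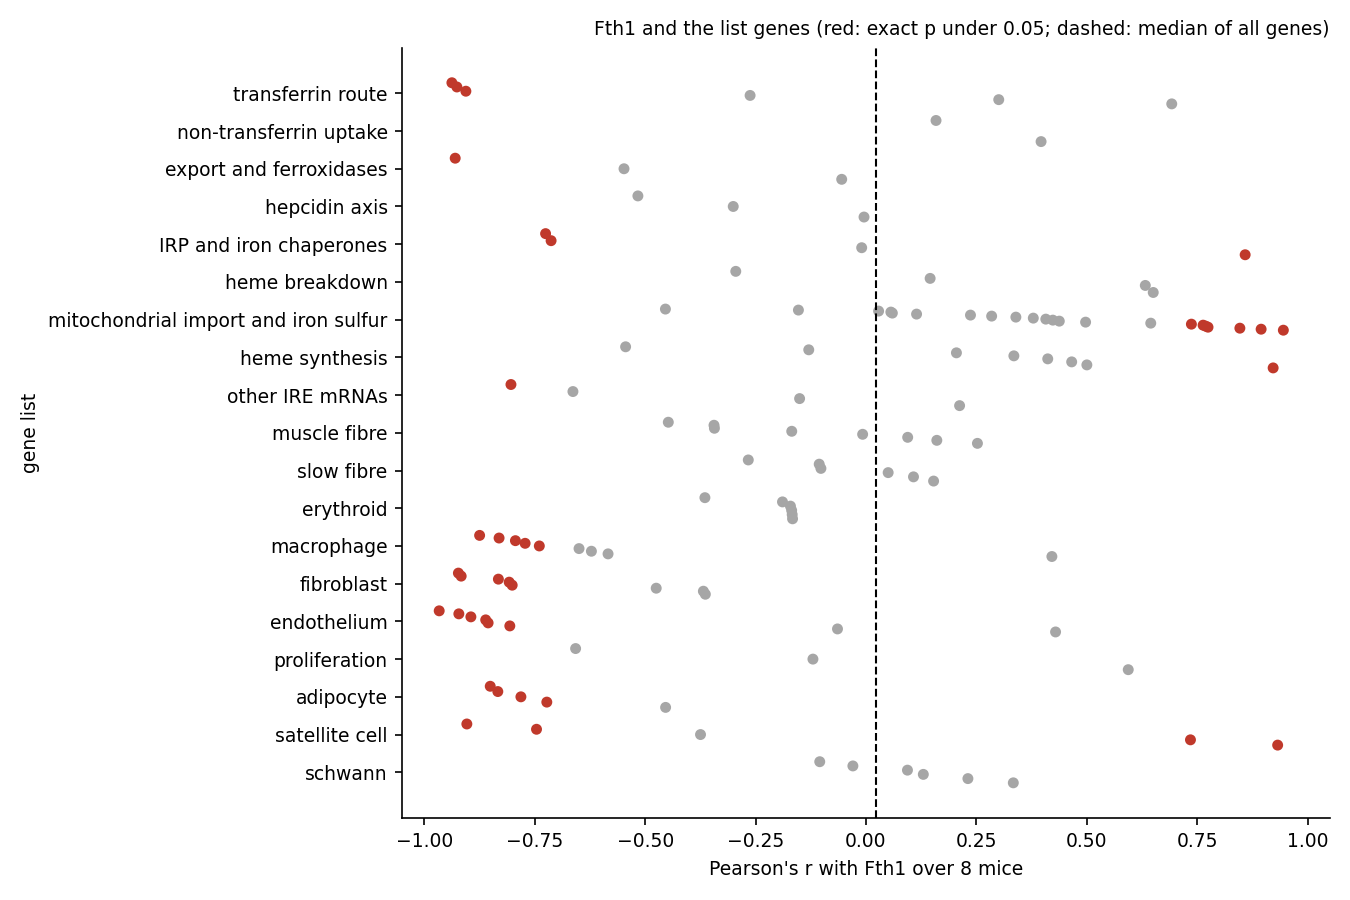
Pearson's r with Fth1 over 8 mice (horizontal axis) of each gene tested in the lists of iron handling (upper 9 rows) and of cell type markers (lower 10 rows), with red for an exact p under 0.05 and the median of all genes (0.02) as a dashed line. Red points of mitochondrial import and iron-sulfur assembly lie on the right (7 of 22), and those of macrophages, fibroblasts, endothelium and adipocytes lie on the left.

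Tfrc had 1 iron gene rising with it and 1 falling (1.79% each, against 3.89% and 3.15% of all genes). Isca1, a late iron-sulfur assembly factor with normalised counts between 3909.8 and 5144, had r = 0.84 (exact p = 0.00657; rho = 0.71, exact p = 0.0576) and 0.79 (exact p = 0.0639) without mice 3 and 4. Under library totals its r was 0.38 (exact p = 0.361). Hmox1, the inducible heme oxygenase that frees iron from heme, had 327 and 386 in mice 3 and 4 and between 235 and 299 in the others. Its r with Tfrc was -0.77 (exact p = 0.0262; rho = -0.52, exact p = 0.197) and -0.22 without mice 3 and 4, so it rested on those mice. The number that passed with Tfrc was 4 without mouse 2, 6 or 8 and 1 without mouse 4 or 7. Ftl1 had 3 rising, Slc39a14, Iba57 and Nubp1, against 7.92% of all genes (5.36%), and 2 falling, Fech among them, against 5.09% (3.57%). Slc39a14 is counted here over all 8 mice, the cluster of mice 3 and 4 included, and did not pass over the other 6 (exact p = 0.138). Fech, which puts iron into heme, had r = -0.82 (exact p = 0.0185; rho = -0.69, exact p = 0.0694). The number that passed with Ftl1 was 3 without mouse 1, 2 or 3. Slc40a1 had none in either direction, against 1.55% and 1.43% of all genes, but 6 without mouse 1 and 1 without mouse 2, 4 or 6. Under library totals more genes passed with Ftl1 and with Slc40a1, and these numbers are given with the other settings below.

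The remaining iron genes had at most 5 pathway genes in a direction. Steap3 had 5 rising and 2 falling (8.93% and 3.57%, against 4.33% and 6.65%). Of the 5 that rose, Steap2, Steap4 and Fbxl5 turned to r of -0.29, -0.68 and -0.63 without mice 1 and 2, whereas Neo1 and Blvrb had 0.89 and 0.91. Slc11a2 had 2 rising and 3 falling (3.57% and 5.36%, against 3.98% and 2.6%). Ncoa4 had 3 rising and 3 falling (5.36% each, against 5.48% and 4.42%), Aco1 1 rising and 3 falling (1.79% and 5.36%, against 4.88% and 3.63%), and Ireb2 3 rising and 3 falling (5.36% each, against 2.44% and 2.08%). Beside Steap3, 3 of 8 fibroblast and 2 of 8 endothelial markers rose, and their part in its level was not tested. Without mice 1 and 2 the r of Dcn, Cdh5 and Emcn turned to -0.48, -0.30 and -0.83, that of Dpt was 0.10 and that of Lum 0.83, and none of these 5 passed by rho over the 8 mice. None of the red cell markers passed with any of the 9 genes, although the coefficient of variation of their summed level was 57.3%.

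The genes whose pattern over the 8 mice was most like that of Tfrc were named by the size of r among protein-coding genes, and their values are a description, since they were picked for it. The 5 most positive were Nfix (r = 0.95), a transcription factor of muscle development, Lsm14b (0.95), the depalmitoylating enzyme gene Lypla1 (0.94), Palmd (0.93) and Usf2 (0.93), an E-box-binding transcription factor. The 5 most negative were Dimt1 (-0.97), an rRNA methyltransferase gene, Stat6 (-0.97), the transcription factor of interleukin-4 signaling, Pcdhgb1 (-0.95), Pik3c3 (-0.94), the lipid kinase of autophagy, and Pcdhga1 (-0.94). Pcdhgb1 and Pcdhga1 belong to a cluster that shares exons, and their reads cannot be told apart with certainty. Without mice 3 and 4, Usf2 and Lypla1 had r = 0.99 and 0.91, the other 3 positive genes between 0.73 and 0.81, and the 5 negative genes between -0.86 and -0.75. The adjusted exact p of these 10 was between 0.254 and 0.355.

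For the other iron genes the 2 most alike were Ciita and Usp45 for Steap3 (r = 0.98 and 0.97), Tmem269 and Dazap2 for Slc11a2 (0.98 and 0.98), and Tomm6 and Lix1 for Fth1 (0.98 and 0.98). Tomm6 encodes a small subunit of the mitochondrial outer membrane translocase. For Ftl1 they were its near-copy Ftl1-ps1 and Shld1 (0.99 and 0.99), for Ncoa4 Dusp7 and Cyb5d1 (0.96 and 0.96), and for Slc40a1 Clip4 and Dcbld1 (0.91 and 0.90). For Aco1 the most alike was Slc35e1 (0.99), and for Ireb2 they were Phospho1 and Katnbl1 (0.96 and 0.95). Cyb5d1 had r = 0.12 with Ncoa4 without mice 1 and 8, so that its likeness rested on those mice. No gene named appeared for more than 1 of the 9 iron genes.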

How the data were processed

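RNA was extracted by the authors from frozen muscle of 8 immobilized, K14Q MOTS-c-treated mice with TRIzol and a column kit, and poly-adenylated RNA was sequenced on an Illumina NextSeq platform. Per the study's methods and the submitters' processing notes, reads were checked with FastQC, trimmed with fastp, aligned with STAR to GRCm38, counted per gene with summarizeOverlaps and normalized with DESeq2. The annotation release, the use of strand and the handling of reads that fit several genes are not given in the sources used here. The deposited signal is a count divided by 1 size factor per library, by the authors. All nonzero values (100%) were whole multiples of the value of 1 read, within 0.01 of a read, so counts were recovered, which served for depth, the minimum of 10 counts in every library and other scalings. The counts are reads without molecular identifiers, so counting errors cover sampling only. Of 55487 identifiers, 55227 were found in GENCODE release 21 (M21) on GRCm38, which gave names, positions, exon lengths and transcript sequences. Promoter and protein sequences were not used.

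The members and the gene lists were chosen with earlier results of these data known. Only 1 group was analysed, so levels are means with SD over 8 mice and no test between conditions was made. Pearson's r and Spearman's rho on log2(normalised count + 1), a pseudocount of 1, were tested with exact two-sided permutations over every order of the mice, and adjusted by Benjamini-Hochberg over the 136206 relations of 9 genes with 15135 genes. The smallest exact p that 8 mice allow is 2.48e-05. Windows of 75 bases were compared between transcripts. No library repeated another: over the 28 pairs, the chi-square per degree of freedom was between 16.1 and 119.

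The genes named were all 9 members, the pairs that iron biology links and any other pair with an unadjusted exact p under 0.05, the 5 most positive and 5 most negative r with Tfrc and the 2 most positive with each other member, iron pathway genes under 0.05 with Tfrc, Fth1, Ftl1 or Slc40a1, the 5 highest per kb and those without a count, pseudogenes, and overlapping genes. A few genes that this rule names are not reported here. Other iron genes and cell type markers named beside a result were chosen after their values were seen. The alternatives were TMM factors from edgeR 4.0.16, library totals, the median, the longest transcript, a pseudocount of 5, Spearman's rho, genes with a count in at least 1 library, trends on GC content and length taken out, and leaving out each mouse. Leaving out mice 3 and 4, and library totals and leaving out each mouse for the pathway and marker counts, were chosen after seeing the data. Scripts were tested on simulated data. R 4.3.3 and Python 3.11.15 were used, with matplotlib 3.10.9, pandas 2.3.3, scipy 1.17.1 and numpy 2.4.6.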

Additional observations from a re-analysis of the deposited data

Results flagged for a closer look

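Over 42 results with 8 values each, 4 had a highest or lowest mouse farther from the next mouse than the 95% critical share of the range in Dixon's gap test, while chance flags about 1 in 20. None of the 9 iron genes was among them. Cisd1 reached 1929 normalised counts in mouse 8, against 1519 in the next mouse (share of the range 0.535). Nfs1, the cysteine desulfurase of iron-sulfur assembly, reached 2014 in mouse 8 (0.575). Herc2 fell to 2811 in mouse 8, against 3582 in the next mouse (0.573). The summed Schwann cell markers reached 5541 in mouse 7 (0.705). Mouse 8 also had the highest Fth1 and Slc40a1 and the lowest Ncoa4 and Aco1, and the part of this mouse in the relations of Fth1 is given by the counts without it.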

How the results depend on the processing

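No paired analysis was possible because only 1 group was analysed, so that no replicate number is shared between groups. Mean levels of the 9 genes moved by less than 1 SD under TMM factors, library totals and the median. Per kb of the longest transcript, Fth1 had 18642, Ftl1 3709, Ncoa4 311, Ireb2 214, Tfrc 178, Aco1 144, Slc11a2 138 and Slc40a1 134. The cause of the changes that follow was not tested. Member pairs under an exact p of 0.05 numbered 1 under TMM factors, 4 under library totals, 0 with GC content and length trends removed, 1 by Spearman's rho (Slc11a2 with Ireb2, rho = 0.79, exact p = 0.0279, r = 0.62 with exact p = 0.104), and 0 to 2 without each mouse. The r of Tfrc with Fth1 turned to -0.0038 under TMM factors and -0.28 under library totals (-0.069 to 0.25 without each mouse), with Ireb2 to -0.011 and -0.66 (-0.058 to 0.45), and with Aco1 to 0.051 with trends removed, 0.17 by rho and 0.50 without mice 3 and 4 (-0.33 to 0.086). Without each mouse, Tfrc had r of -0.080 to 0.38 with Slc11a2 and -0.35 to 0.17 with Steap3. Tfrc with Ftl1 turned to 0.45 without mice 3 and 4. Aco1 with Ireb2 turned to 0.76 and Ncoa4 with Fth1 to 0.28 under library totals, and Aco1 with Ireb2 was -0.53 to 0.41 without each mouse.

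The number of pathway genes that passed with Tfrc was 4 under TMM factors, 5 with trends removed, 1 under library totals and 1 to 4 without each mouse, and with Ftl1 it was 3 with trends removed, 17 under library totals, 3 without mice 3 and 4 and 3 to 7 without each mouse. With Slc40a1 it was 3 with trends removed, 8 under library totals and 0 to 6 without each mouse. With Fth1, 22 rose and 0 fell under library totals, and 6 to 10 rose and 4 to 8 fell without each mouse; of the iron-sulfur genes 12 rose under library totals and 4 to 7 without each mouse. Fibroblast, endothelial, adipocyte and macrophage markers that fell with Fth1 numbered 0 each under library totals, 8 for macrophages with trends removed, and 4 to 6, 5 to 6, 1 to 4 and 2 to 5 without each mouse. Fibre markers that rose with Tfrc numbered 0 under library totals, 0 without mice 3 and 4 and 0 to 4 without each mouse, and those that fell with Ftl1 0 without mice 3 and 4 and 2 to 5 without each mouse. With the authors' size factors and the 5 settings that follow, no relation had an adjusted exact p under 0.05, and no adjusted value was computed by rho or with mice left out: the unadjusted number was 12354 under TMM factors, 24109 under library totals, 12298 with a pseudocount of 5, 10955 with trends removed, and 18289 of 280215 for genes with a count in at least 1 library. With 8 mice only strong relations can pass, so weaker ones could not be shown.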

Other observations

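Some other iron genes were highest or lowest in the same mice as iron genes described above. Slc25a28, which encodes mitoferrin 2, the mitochondrial iron importer of most tissues, had normalised counts between 728 and 1297 and was highest in mouse 5, as were Tfrc and Slc11a2. Hspa9, at 15619 in mouse 5, and Alas1, the rate-limiting enzyme of heme synthesis, at 1671, were also highest there, against at most 13503 and 1503 in the other mice. Hfe2 was lowest in mice 3 and 4 (7426 and 7782) and highest in mouse 1 (11164). These values were picked after they were seen, and the highest and lowest mice were compared with no test.

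Between mitoferrin genes the levels were of the same order, with Slc25a28 at 262 ± 49.5 and Slc25a37 at 112 ± 19.4 normalised counts per kb of exon (SD, n = 8). Of the heme oxygenases, Hmox2 (293 ± 15.3 per kb) was above Hmox1 (162 ± 30.3 per kb). Alas2, the erythroid heme synthesis enzyme, whose mRNA also holds a hairpin match, had normalised counts between 60.2 and 299.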
